A study of Mus musculus with 12 samples.

Results

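The 37 genes described here belong to the unfolded protein response, the chaperones of the endoplasmic reticulum (ER) and ER-associated degradation. They were taken as a list of symbols that was chosen with earlier results of these data known. Counts and shares of the members set beside those of all genes are therefore descriptions and no independent support for an excess. Each symbol matched 1 of the 52636 gene identifiers in the files, and all 37 passed the filter on low counts that left 14433 genes for testing. RNA from mouse liver was sequenced in 12 libraries, 3 in each of 4 groups. All mice were C57BL/6 and 12 weeks old. The group wt_normal was p53 wild type on a normal diet, ko_normal was p53 knockout on a normal diet, wt_HFD was p53 wild type on a high-fat diet (HFD), and ko_HFD was p53 knockout on HFD. How the p53 allele was made, how long the diet lasted and the time of day at sampling were not given in the sources used here. Nor do they say whether each replicate is another animal; the p-values cover the spread of these libraries only, and some of it may be technical.

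Secreted and membrane proteins fold in the ER, and the liver secretes much of the plasma protein. When folding lags behind, 3 sensors signal: PERK (gene Eif2ak3) phosphorylates a translation factor and thereby favours translation of ATF4, IRE1 (gene Ern1) splices the Xbp1 mRNA, and ATF6 is cut in the Golgi to release a transcription factor. ATF4 is known to act on amino acid supply, redox and cell death genes, XBP1 on translocation and degradation genes, and ATF6 on chaperones, with much overlap between the last pair. The mRNA levels of Atf4, Xbp1 and Atf6 do not measure translation, splicing or cleavage. The members were therefore grouped by role, from general knowledge, into 5 sensors and factors, 5 targets of the ATF4 arm, 9 of the XBP1 arm, 14 of the ATF6 arm and 4 genes assigned to no arm.

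Trp53, the targeted gene, had 265, 305 and 306 counts in wt_normal, 142, 166 and 432 in wt_HFD, 28, 8 and 5 in ko_normal and 12, 13 and 12 in ko_HFD. It was lower in every knockout library than in any wild-type library. Total counts ran from 15465187 to 20492567 per library, so depth differed little between libraries. The liver label was matched by hepatocyte markers in all libraries, with a summed level of 45580 to 87700 CPM (counts scaled to library size with TMM factors) over 8 genes. Library wt_normal 2 stood apart, with 8882 CPM over 8 skeletal muscle markers against at most 11.5 in the others, and with 236 CPM over 8 B and plasma cell markers against at most 31.2. The clock index, the mean log2 CPM of Arntl, Npas2, Clock and Cry1 minus that of Dbp, Nr1d1, Nr1d2, Per3, Tef and Ciart, was 0.12, -2.11 and 0.47 in wt_normal and between -5.16 and -1.39 in the other 9 libraries. These genes follow the daily rhythm in liver, and wt_HFD replicate 3, at -1.39, lay within the wt_normal range. It was the library with the highest level of 18 members, and the share of all genes highest there was not computed.

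Promoter sequence is shown for some of the members that hold one of the elements through which the arms are known to act. The stretches are examples, and Calr, Canx, Dnajc3, Syvn1, Dnajb11, Asns and Trib3, which also hold one, are not printed. A link between an element and the change of its gene was not tested. Of the 37 members, 31 had a window of 250 bases before to 50 after the start site in RefSeq (GRCm38.p6). The ER stress element, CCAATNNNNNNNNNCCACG on either strand, was found in 9 of these 31 members (29.0%) and in 0.137% of all 27025 genes with a window. Those 9 were Calr, Canx, Creld2, Derl3, Dnajc3, Hsp90b1, Hspa5, Pdia6 and Syvn1, of which Dnajc3 belongs to the XBP1 arm, Canx to none and the other 7 to the ATF6 arm. Its second form, ATTGGNCCACG, was found in Herpud1 and Dnajb11, against 0.0444% of genes. The amino acid response element TGATGNAA was found in Asns, Cdk5rap3, Chac1, Herpud1 and Trib3 (16.1% of the 31 members, 4.51% of genes), and the UPR element TGACGTGG in 0 members (0.714% of genes). No matches overlapped one another. The members and the elements both come from knowledge of this response, so the higher shares among the members are no independent result. Capitals mark the fixed letters of the element in the stretches below, each read 5′ to 3′ on the gene's strand; a match is a run of letters and not a measured binding site.
Hspa5, ER stress element, chr2:34772020-34772048, plus strand, 65 bases before the start site: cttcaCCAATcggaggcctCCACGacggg
Creld2, ER stress element in reverse, chr15:88819500-88819558, plus strand, 126 bases before: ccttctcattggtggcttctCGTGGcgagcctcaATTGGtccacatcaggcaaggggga
Derl3, ER stress element in reverse, chr10:75893222-75893280, plus strand, 156 bases before: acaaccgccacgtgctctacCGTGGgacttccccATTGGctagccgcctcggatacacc
Hsp90b1, ER stress element in reverse, chr10:86705513-86705571, minus strand, 107 bases before: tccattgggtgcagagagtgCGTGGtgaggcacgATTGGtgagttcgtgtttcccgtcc
Pdia6, ER stress element, chr12:17266471-17266529, plus strand, 98 bases before: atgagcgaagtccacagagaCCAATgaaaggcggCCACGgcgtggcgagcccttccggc
Herpud1, second form, chr8:94386357-94386407, plus strand, 52 bases before: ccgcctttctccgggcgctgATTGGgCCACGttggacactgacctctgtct
Chac1, amino acid response element in reverse, chr2:119351029-119351076, plus strand, 193 bases before: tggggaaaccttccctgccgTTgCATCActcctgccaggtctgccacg
Cdk5rap3, amino acid response element, chr11:96916700-96916747, minus strand, 213 bases before: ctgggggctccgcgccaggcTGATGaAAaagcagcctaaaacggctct

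Of the 37 members, 27 had their lowest group mean in wt_normal, among them all 14 ATF6 arm targets, and 24 had their highest in wt_HFD. For Xbp1, Creld2, Manf, Herpud1, Derl3, Sel1l and Cdk5rap3 all 3 wt_normal libraries lay below the other 9. The shares of all genes with these orders of the groups were not computed, so these counts have no background beside them. On HFD against normal diet in wild type, 34 of 37 members had a positive log2 change, with a median of 0.62 against -0.03 over all genes tested. With ko against wt on the normal diet, 30 of 37 were positive, with a median of 0.46 against -0.02. On HFD, 30 of 37 were negative with ko against wt and the median was -0.25, against -0.01 over all genes. On HFD against normal diet in the knockout, 19 were positive and 18 negative, and the median was 0.00. With the clock index as a covariate the 4 medians became 0.97, 0.93, -0.04 and 0.05. The index largely coincides with the group wt_normal, so values adjusted for it, here and below, rest on few libraries. The first pair of these comparisons share the wt_normal libraries, and each of the others also shares a group with them, so the comparisons are not independent of one another.

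The test was edgeR's quasi-likelihood F-test in 1 fit of all 12 libraries, with Benjamini-Hochberg adjustment over the 14433 genes, and a gene was called at an adjusted p under 0.05. HFD against normal diet in wild type called 4 of 37 members, all higher, against 0.693% of all genes. They were Creld2, Derl3, Manf and Cdk5rap3. At an unadjusted p under 0.05, 22 members were higher and 0 lower, against 17.0% of all genes in either direction, and DESeq2 called 14 members, all higher, against 4.83%. The 3 libraries of wt_HFD lay above those of wt_normal for 18 members, against 11.2% of all genes, and below them for 0, against 10.7%. For groups of 3 that do not overlap, a two-sided exact permutation test gives p = 0.1, the smallest it can give.

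**Figure D1:**
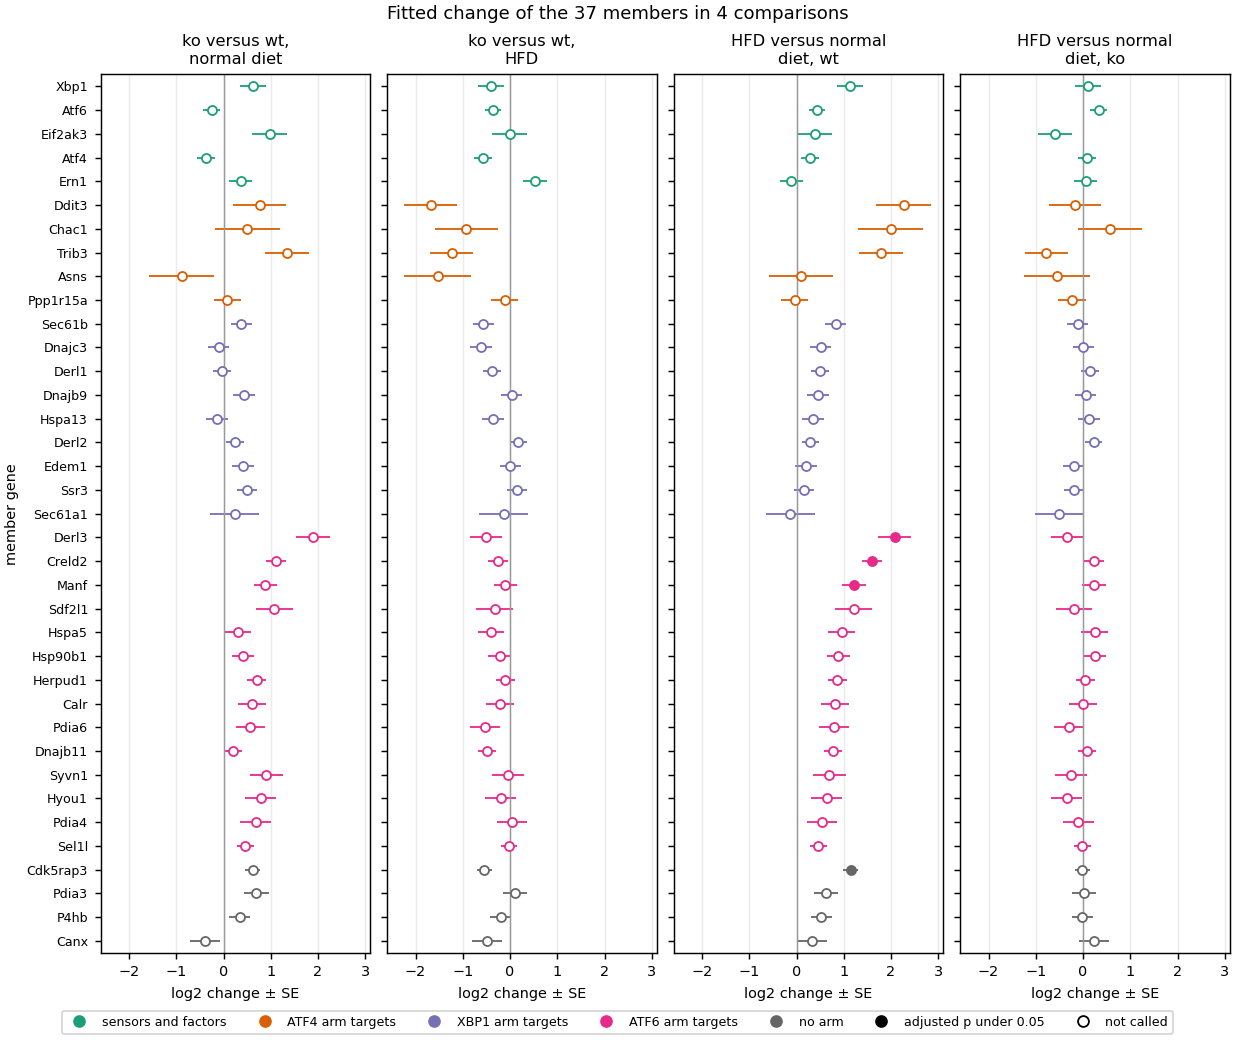
Each row is 1 of the 37 members, grouped by role in colour, and each panel is a comparison; points are fitted log2 changes, bars their standard error, and filled points passed an adjusted p of 0.05. In HFD versus normal diet in wild type all 14 ATF6 arm targets lie right of 0, from 0.46 to 2.08, and in HFD versus normal diet in the knockout they lie between -0.34 and 0.25.

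Creld2, an ER-resident and secreted protein induced by ER stress, measured 53.7, 27.5 and 38.0 CPM in wt_normal and 125, 107 and 127 in wt_HFD. In ko_normal it measured 89.0, 93.6 and 75.0, and in ko_HFD 107, 103 and 93.2. Every library of the other 3 groups lay above every wt_normal library. In wild type it rose with HFD by a log2 change of 1.59 (SE 0.22, 3.02-fold, adjusted p = 0.0103 in edgeR). With ko against wt on the normal diet the log2 change was 1.11 (SE 0.21, adjusted p = 0.0597 in edgeR), which missed the threshold, and on HFD it was -0.25 (SE 0.21, adjusted p = 0.768).

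Derl3, a derlin that takes part in moving misfolded proteins out of the ER, was a low gene with 6.83, 3.05 and 8.68 CPM in wt_normal. It measured 27.1, 20.3 and 21.6 in ko_normal, 27.2, 23.2 and 27.7 in wt_HFD and 21.0, 23.2 and 10.3 in ko_HFD. Here too wt_normal lay under all others, and ko_HFD replicate 3 came closest to it. The rise with HFD in wild type was 2.08 on the log2 scale (SE 0.36, 4.22-fold, adjusted p = 0.0264 in edgeR). Ko against wt on the normal diet gave 1.90 (SE 0.35, adjusted p = 0.0539 in edgeR), the smallest adjusted p among the 37 members in that comparison.

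Manf, a secreted factor that is also retained in the ER and binds the chaperone BiP, measured 96.5, 51.8 and 62.3 CPM in wt_normal and 165, 125 and 201 in wt_HFD. The ko_normal libraries held 119, 152 and 119 CPM and the ko_HFD libraries 156, 175 and 127. Its rise with HFD in wild type was 1.22 (SE 0.25, 2.33-fold, adjusted p = 0.0486 in edgeR). Manf shares 4.14% of its exon bases with Dcaf1 and 4.71% with an antisense transcript on the other strand, and without knowledge of strand in the counting these reads cannot be told apart. Of the 37 members 13 share exon bases with another gene, and the share with a single other gene exceeds 5% for 5. For Hsp90b1 (10.3%), Sec61a1 (8.16%), Eif2ak3 (8.05%) and Cdk5rap3 (5.95%) that gene lies on the other strand. For Ddit3 (6.13%) it is a second entry of the same symbol. Shares with several genes, as for Manf, were not combined.

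Cdk5rap3, part of the enzyme complex that attaches the small modifier UFM1 to proteins at the ER, measured 49.4, 53.8 and 48.3 CPM in wt_normal. It measured 100, 120 and 114 CPM in wt_HFD, 71.6, 85.7 and 74.6 in ko_normal and 88.0, 79.8 and 61.4 in ko_HFD. Knockout livers thus lay between the wild-type groups on both diets, above wt_normal and below wt_HFD. The rise with HFD in wild type was 1.14 (SE 0.16, 2.21-fold, adjusted p = 0.0153 in edgeR). Ko against wt was 0.61 (SE 0.16, adjusted p = 0.116) on the normal diet and -0.54 (SE 0.16, adjusted p = 0.411) on HFD in edgeR, with groups that did not overlap on either diet.

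Of these 4 calls, Creld2 and Cdk5rap3 were kept in 11 of the 12 fits that left out 1 library, Derl3 in 7 and Manf in 1. Without wt_normal replicate 3 no member was called, with adjusted p-values of 0.083 for Creld2 and Cdk5rap3, 0.0819 for Derl3 and 0.139 for Manf. Without wt_normal replicate 2, the library with muscle transcripts, Creld2 (log2 1.41) and Cdk5rap3 (1.21) stayed called, while Derl3 was 1.76 (adjusted p = 0.0592) and Manf 1.07 (adjusted p = 0.166). Without ko_normal replicate 3 or wt_HFD replicate 1 the same 2 members stayed called, and without wt_HFD replicate 2 they were joined by Ddit3. Without wt_normal replicate 1 there were 6 called members, with Hsp90b1 and Sdf2l1 beside the 4. A fit of the wild-type groups alone called 1 member, Cdk5rap3, against 0.248% of all genes. Of all genes, 0.0604% were called without wt_normal replicate 3, 0.156% without wt_normal replicate 2 and 0.859% without wt_normal replicate 1. Without ko_normal replicate 3, wt_HFD replicate 1 or wt_HFD replicate 2 the shares were 0.161%, 0.148% and 0.128%. With every library kept the share was 0.693%, so the calls rose and fell over all genes too.

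**Figure D2:**
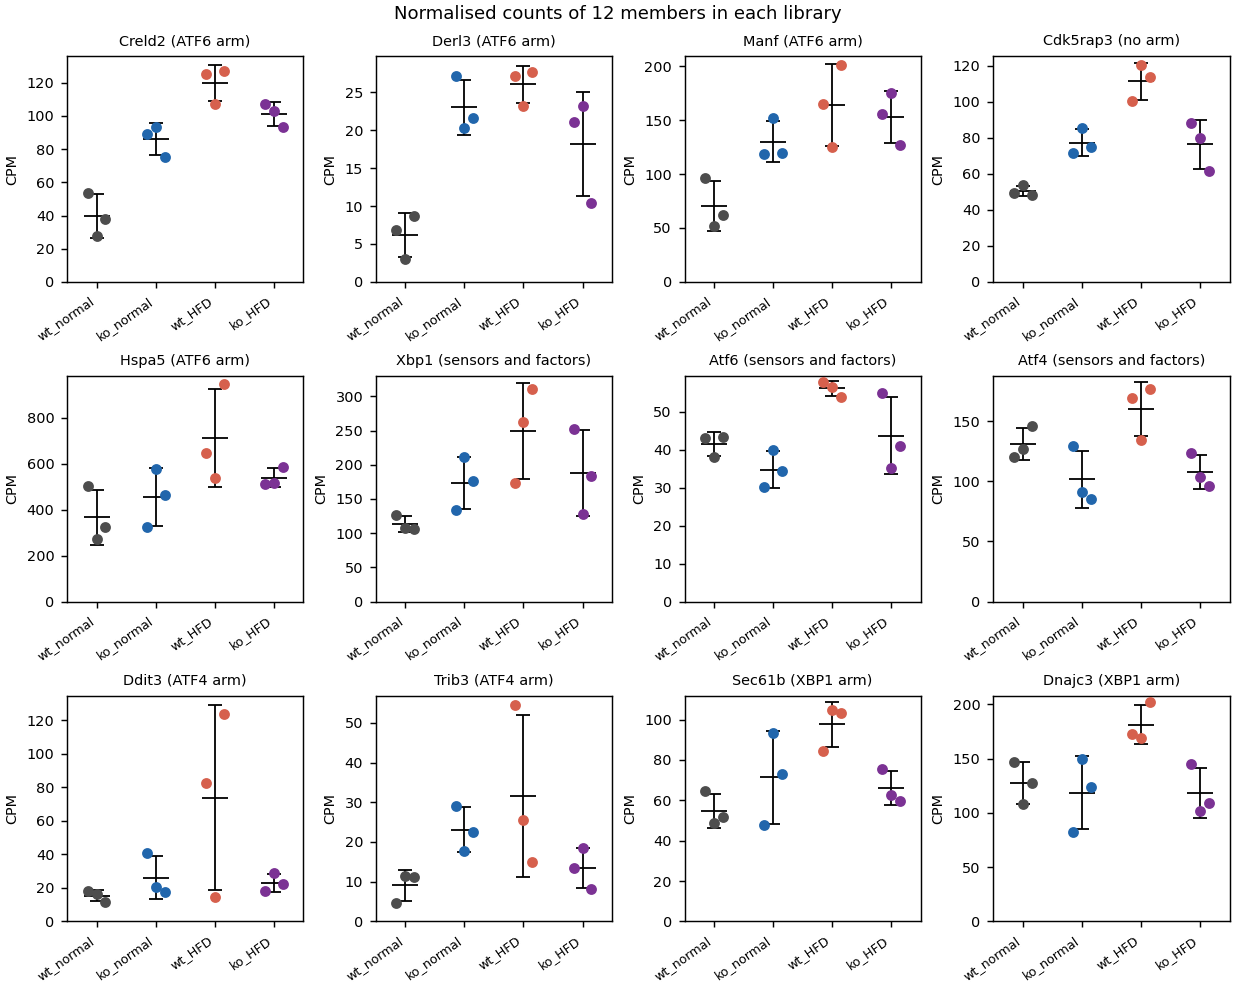
Each panel shows the CPM of 1 member on a linear axis from 0; points are libraries, horizontal marks the group mean and bars the SD of 3 libraries. Creld2, Derl3 and Manf are lowest in wt_normal, Cdk5rap3 in the knockout lies between 61.4 and 88.0 on both diets, and Ddit3 in wt_HFD spreads from 14.6 to 124.

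Among the 5 sensors and factors, edgeR called 0 in any comparison. An unadjusted p under 0.05 was reached by 2 with HFD in wild type and 2 with ko on the normal diet, by 1 with ko on HFD and 1 in the difference of the ko effects, against 17.0%, 15.1%, 8.85% and 5.02% of all genes. DESeq2 called 1, Xbp1, with HFD in wild type, against 4.83% of all genes. Xbp1, the factor activated by IRE1 splicing, measured 126, 108 and 106 CPM in wt_normal, 134, 211 and 176 in ko_normal, 173, 262 and 311 in wt_HFD and 253, 128 and 183 in ko_HFD. Its log2 change with HFD in wild type was 1.13 (SE 0.27, adjusted p = 0.0851 in edgeR and 0.00372 in DESeq2), and with ko on the normal diet 0.62 (SE 0.27, adjusted p = 0.312 in edgeR). All wt_normal libraries lay below all others for Xbp1 total mRNA.

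Atf6, the membrane-bound factor cut under stress, measured 43.1, 38.0 and 43.5 CPM in wt_normal and 57.8, 56.7 and 54.0 in wt_HFD, which did not overlap (log2 0.44, SE 0.17, adjusted p = 0.234 in edgeR). In the knockout it measured 30.2, 39.9 and 34.3 on the normal diet and 55.1, 35.2 and 40.9 on HFD. Atf4 measured 120, 127 and 146 CPM in wt_normal, 129, 90.8 and 84.9 in ko_normal, 169, 134 and 176 in wt_HFD and 124, 104 and 96.0 in ko_HFD. The ko_HFD libraries all lay below the wt_HFD libraries for Atf4 (log2 -0.57, SE 0.19, adjusted p = 0.45 in edgeR).

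Eif2ak3, which encodes the kinase PERK, measured 6.16, 4.67 and 4.24 CPM in wt_normal and 14.7, 7.64 and 7.36 in ko_normal, without overlap (log2 0.98, SE 0.37, adjusted p = 0.231 in edgeR). It measured 3.85, 5.87 and 9.92 in wt_HFD and 5.78, 5.24 and 8.59 in ko_HFD, where the groups overlapped. Ern1, which encodes the kinase and endonuclease IRE1, measured 26.6, 17.0 and 16.1 CPM in wt_normal, 27.0, 23.2 and 26.4 in ko_normal, 19.8, 13.4 and 21.9 in wt_HFD and 33.4, 19.8 and 26.4 in ko_HFD, and its groups overlapped in all 4 comparisons.

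The 14 ATF6 arm targets were the role in which all members had the same sign in both comparisons with wt_normal. On HFD against normal diet in wild type, 3 of 14 were called by edgeR, 11 had an unadjusted p under 0.05 and 9 lay higher without overlap, against 0.693%, 17.0% and 11.2% of all genes. The median log2 change was 0.84 (0.46 to 2.08). With ko against wt on the normal diet edgeR called 0 and DESeq2 4, 8 had an unadjusted p under 0.05 and 6 lay higher without overlap, against 0.208%, 3.69%, 15.1% and 11.4% of all genes, and the median was 0.69 (0.21 to 1.90). With the clock index as a covariate these medians became 1.51 and 1.64. For ko against wt on HFD 13 of 14 were negative, and the median was -0.22 without and near 0 with the covariate. On HFD in the knockout it was -0.01, with 7 positive and 7 negative.

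Hspa5, the gene of the chaperone BiP, measured 502, 272 and 326 CPM in wt_normal, 326, 577 and 462 in ko_normal, 649, 538 and 947 in wt_HFD and 513, 516 and 588 in ko_HFD. Its libraries did not overlap between the diets in wild type (log2 0.96, SE 0.28, adjusted p = 0.129 in edgeR and 0.0231 in DESeq2), and they overlapped between the genotypes on both diets. The other chaperones and isomerases of this role (Hsp90b1, Sdf2l1, Dnajb11, Pdia4, Pdia6, Calr and Hyou1) had log2 changes of 0.54 to 1.21 with HFD in wild type, and none passed adjustment in edgeR. DESeq2 called Hsp90b1, Dnajb11 and Sdf2l1 of these, against 4.83% of all genes. Herpud1, Sel1l and Syvn1, which build the ubiquitin ligase complex of ER-associated degradation, had 0.86, 0.46 and 0.69, with DESeq2 calling Herpud1.

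Of the 5 ATF4 arm targets edgeR called 0 in any comparison, and with HFD in wild type 3 had an unadjusted p under 0.05 and were called by DESeq2 (Ddit3, Trib3 and Chac1). The SEs of these 3 changes were 0.47 to 0.69. In the other comparisons 1 of the 5 had an unadjusted p under 0.05 with ko on the normal diet, 3 with ko on HFD and 2 in the difference of the ko effects, where DESeq2 called Trib3. The shares of all genes at that p were 17.0% with HFD in wild type and 15.1%, 8.85% and 5.02% in these others. Of all genes, DESeq2 called 4.83% with HFD in wild type and 0.144% in the difference of the ko effects. Ddit3, the gene of the stress factor CHOP, measured 82.7, 14.6 and 124 CPM in wt_HFD against 18.2, 16.4 and 11.6 in wt_normal, so replicates 1 and 3 were high and replicate 2 lay within the normal-diet range. It measured 40.7, 20.4 and 17.3 in ko_normal and 17.99, 28.8 and 22.5 in ko_HFD. The fitted log2 change with HFD in wild type was 2.26 (SE 0.57, adjusted p = 0.0908 in edgeR and 0.00161 in DESeq2).

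Trib3, a pseudokinase induced by ATF4 and CHOP, measured 54.4, 25.5 and 14.96 CPM in wt_HFD, with replicate 1 the highest. Its levels were 4.62, 11.5 and 11.1 in wt_normal, 29.1, 17.7 and 22.5 in ko_normal and 13.5, 18.5 and 8.27 in ko_HFD. Ko against wt on the normal diet gave 1.34 (SE 0.46, adjusted p = 0.197 in edgeR), without overlap, and HFD in wild type gave 1.797 (SE 0.47, adjusted p = 0.096). With the clock index as a covariate the first turned to -0.33 and the second was 0.50. Chac1, which degrades glutathione, had a log2 change of 1.99 with HFD in wild type (SE 0.69, adjusted p = 0.179) from a mean of 3.33 ± 2.84 CPM to 13.4 ± 5.06 (SD, n = 3). Asns, asparagine synthetase, and Ppp1r15a, the stress-induced subunit of a translation factor phosphatase, had 0.09 and -0.04. The role's median was 1.797 with HFD in wild type, 0.50 with ko on the normal diet, -1.24 with ko on HFD and -0.23 with HFD in the knockout, over 5 genes. Without wt_HFD replicate 1, the medians were 1.15 with HFD in wild type and -0.59 with ko on HFD. With the clock index as a covariate they were 0.88 with HFD in wild type and 0.08 with ko on the normal diet.

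The 9 XBP1 arm targets had the smallest median of the 3 arms in both comparisons with wt_normal, 0.34 with HFD in wild type and 0.24 with ko on the normal diet, and edgeR called 0 in any comparison. With the clock index as a covariate these medians became 0.73 and 0.86, and on the normal diet the ATF4 arm then had the smallest, at 0.08. An unadjusted p under 0.05 was reached by 3 of the 9 with HFD in wild type, 1 with ko on the normal diet, 2 with ko on HFD and 1 in the difference of the ko effects, against 17.0%, 15.1%, 8.85% and 5.02% of all genes. The 1 of 9 with ko on the normal diet is a smaller share than that of all genes. DESeq2 called 1, Sec61b, with HFD in wild type, against 4.83% of all genes. Sec61b, a subunit of the translocation channel, measured 64.5, 48.7 and 51.6 CPM in wt_normal and 84.6, 105 and 103 in wt_HFD (log2 0.83, SE 0.23, adjusted p = 0.107 in edgeR). It measured 47.6, 93.2 and 73.3 in ko_normal and 75.7, 62.7 and 59.9 in ko_HFD, so all ko_HFD libraries lay under all wt_HFD libraries. Dnajc3, a co-chaperone of BiP, measured 147, 108 and 128 CPM in wt_normal, 82.5, 149 and 124 in ko_normal, 173, 169 and 202 in wt_HFD and 145, 102 and 109 in ko_HFD. For Dnajc3 every wt_HFD library lay above the other 9, and for Sec61b ko_normal replicate 2 lay within the wt_HFD range.

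Ssr3, a subunit of the translocon-associated complex, measured 111, 66.1 and 98.7 CPM in wt_normal, 104, 149 and 135 in ko_normal, 97.3, 92.8 and 116 in wt_HFD and 102, 109 and 130 in ko_HFD. Dnajb9, another BiP co-chaperone, measured 31.9, 28.3 and 34.1 in wt_normal, 37.3, 53.8 and 36.3 in ko_normal, 41.1, 31.3 and 56.8 in wt_HFD and 49.4, 46.4 and 36.4 in ko_HFD. For Dnajb9 the wt_normal libraries lay below those of both knockout groups, and for Ssr3 they overlapped with all groups. The other XBP1 arm targets had log2 changes of -0.13 (Sec61a1) to 0.49 (Derl1) with HFD in wild type.

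**Figure D3:**
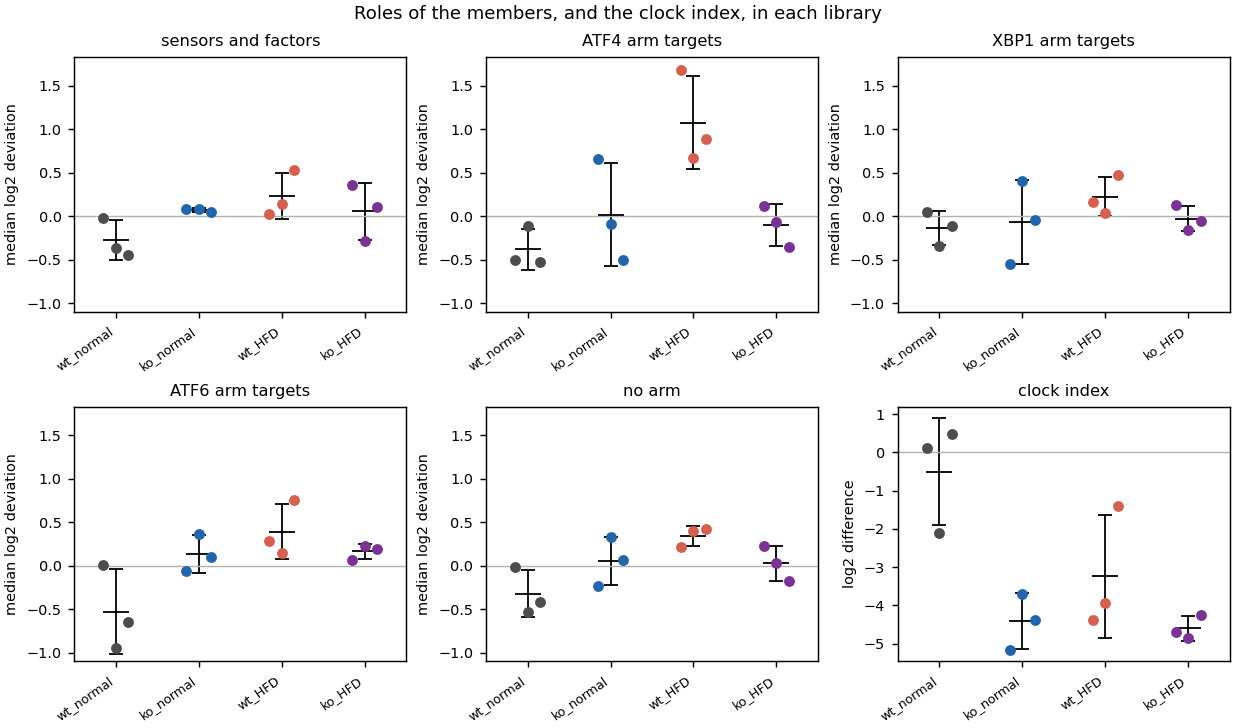
In the first 5 panels each point is the median over the genes of a role of their log2 CPM minus the gene's mean over 12 libraries; the last panel is the clock index, a log2 difference; marks are group means and bars the SD of 3 libraries. The ATF6 arm lies at 0.01, -0.95 and -0.64 in wt_normal and between -0.06 and 0.75 elsewhere, and the ATF4 arm at 1.68, 0.66 and 0.88 in wt_HFD.

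Among the genes assigned to no arm, Pdia3, a disulfide isomerase for glycoproteins, measured 394, 177 and 254 CPM in wt_normal, 378, 490 and 470 in ko_normal, 433, 380 and 457 in wt_HFD and 372, 500 and 486 in ko_HFD. P4hb, protein disulfide isomerase, measured 983, 690 and 878 in wt_normal, 794, 1281 and 1151 in ko_normal, 1227, 1289 and 1160 in wt_HFD and 1287, 1030 and 881 in ko_HFD. For P4hb wt_HFD lay above wt_normal (log2 0.53, SE 0.22, adjusted p = 0.256 in edgeR), and for Pdia3 wt_normal replicate 1 lay within the other groups' range. Canx, the membrane lectin calnexin, had 0.32 with HFD in wild type and -0.40 with ko on the normal diet, and neither was called. Per kilobase of exon, P4hb (369 CPM per kb over 12 libraries), Calr (259) and Herpud1 (209) had the highest levels of the 37 members and Eif2ak3 (1.16) the lowest.

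With ko against wt on the normal diet, edgeR called 0 of 37 members, against 0.208% of all genes. An unadjusted p under 0.05 was reached by 14 members, all higher, against 15.1% of all genes in either direction, and DESeq2 called 5, all higher (Derl3, Creld2, Cdk5rap3, Herpud1 and Manf), against 3.69%. The ko_normal libraries lay above those of wt_normal for 12 members, against 11.4% of all genes, and below for 0, against 11.4%. The 12 included 6 ATF6 arm targets, Xbp1, Eif2ak3, Trib3, Cdk5rap3, Dnajb9 and Edem1.

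With ko against wt on HFD, edgeR and DESeq2 both called 0 members, against 0.0693% and 0.663% of all genes. The 8 members with an unadjusted p under 0.05 were all lower, against 8.85% of all genes in either direction. The ko_HFD libraries lay below those of wt_HFD for 9 members (Asns, Atf4, Cdk5rap3, Creld2, Derl1, Derl3, Dnajb11, Dnajc3 and Sec61b), against 6.85% of all genes, and above for 0, against 6.7%. Dnajb11, a BiP co-chaperone, had the log2 change -0.48 (SE 0.19, adjusted p = 0.515 in edgeR).

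On HFD against normal diet in the knockout, edgeR and DESeq2 called 0 members, and 0 had an unadjusted p under 0.05. All genes had 0.0% called by edgeR, 0.306% by DESeq2 and 5.63% at an unadjusted p under 0.05. For 0 members did the groups separate, against 5.45% of all genes higher and 5.96% lower. The log2 changes of the members ran from -0.78 (Trib3) to 0.56 (Chac1).

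**Figure D4:**
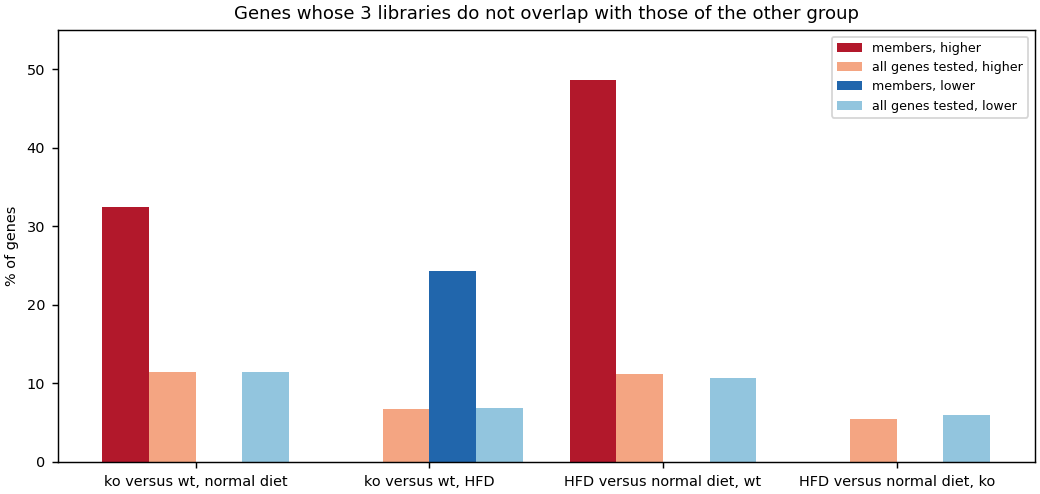
Bars give the percent of the 37 members, and of all 14433 genes tested, whose 3 libraries in one group all lie above (higher) or below (lower) the 3 libraries of the other group. Members reach 48.6% higher with HFD in wild type and 32.4% higher with ko on the normal diet, 24.3% lower with ko on HFD, and 0 in the knockout's diet comparison.

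The difference of the ko effects, HFD minus normal diet, was tested as an interaction term. It was negative for 36 of 37 members, with a median of -0.65 against 0.01 over all genes tested, and Ern1 (0.17) was the exception. EdgeR called 0 members, against 0.0% of all genes, and 12 members had an unadjusted p under 0.05, all negative, against 5.02% in either direction. DESeq2 called 4, Derl3 and Cdk5rap3 (adjusted p = 0.00453 for both), Creld2 (0.0276) and Trib3 (0.0474), against 0.144% of all genes. The median was -1.43 over the ATF4 arm, -0.88 over the ATF6 arm and -0.37 over the XBP1 arm. With the clock index as a covariate the last pair became -1.47 and -0.79. The ATF4 arm's value with the covariate is not given here, so the order of all the arms is given without it only. Without wt_normal replicate 2 or ko_HFD replicate 1 the ATF4 arm had -2.40 and -2.33, and without ko_HFD replicate 2 it had -0.94. Without ko_normal replicate 2 or wt_HFD replicate 3 the XBP1 arm had -0.21 and -0.24. A difference between the arms was not tested. The interaction uses all 12 libraries, those of wt_normal included.

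Members with the ER stress element or its second form had a median log2 change of 0.81 with HFD in wild type (11 genes, 0.32 to 2.08), and the 20 members with a window and neither form had 0.49 (-0.11 to 2.26). For ko on the normal diet the medians were 0.57 and 0.48. The 5 members with the amino acid response element had 1.14 and 0.61. The members are known genes of the response in which these elements act, so the list and the elements are not independent. A difference between the sets was not tested. Outside the members, 28 further genes held the ER stress element, of which 10 were tested, 8 were positive with HFD in wild type (median 0.40) and 4 with ko on the normal diet (median -0.09), and edgeR called 0 in both.

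Of 29 other ER folding and degradation genes, edgeR called 0 in any comparison. With HFD in wild type 23 had a positive log2 change, 8 had an unadjusted p under 0.05 and the median was 0.29. Of 28 tested translocation and vesicle genes of the XBP1 arm outside the members, edgeR called 0, 27 had a positive log2 change with HFD in wild type, 7 an unadjusted p under 0.05, and the median was 0.32. Rpn1, a subunit of the glycan-transferring enzyme, came closest with 1.05 (SE 0.23, adjusted p = 0.0566 in edgeR). With HFD in wild type, DESeq2 called 3 genes of the first list and 4 of the second, all higher. With ko on the normal diet, 8 of the first list were higher and 3 lower at an unadjusted p under 0.05, 7 of the second were higher, and DESeq2 called 2 and 1. Of all genes, an unadjusted p under 0.05 was reached by 17.0% with HFD in wild type and 15.1% with ko on the normal diet, and DESeq2 called 4.83% and 3.69%.

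Of 31 tested ATF4 and integrated stress response genes outside the members, edgeR called 1 higher and 1 lower with HFD in wild type, against 0.693% of all genes, and the median was 0.43. At an unadjusted p under 0.05, 13 were higher and 2 lower (17.0% of all genes), and DESeq2 called 9 higher and 1 lower (4.83%). With ko on the normal diet 25 of the 31 were negative, with a median of -0.20, where the ATF4 arm had 0.50. The list and the arm had medians of 0.38 and -0.23 with HFD in the knockout and -0.37 and -1.24 with ko on HFD. For the difference of the ko effects they had -0.14 and -1.43. Gdf15, a stress-induced hormone, rose from 10.5, 5.52 and 2.91 CPM in wt_normal to 51.4, 146 and 50.9 in wt_HFD (log2 3.72, SE 0.69, adjusted p = 0.0329 in edgeR). It measured 26.6, 13.1 and 10.6 CPM in ko_normal and 83.5, 19.7 and 108 in ko_HFD. Cth, which makes cysteine from cystathionine, fell by 1.38 on the log2 scale with HFD in wild type (SE 0.23, adjusted p = 0.024 in edgeR), from 424, 399 and 471 CPM to 185, 111 and 202. Leaving out 1 library kept Gdf15 called in 6 of 12 fits and Cth in 7 of 12, with adjusted p-values up to 0.132 and 0.083. The libraries whose removal ended both calls were wt_normal 2 and 3, ko_normal 3 and wt_HFD 1 and 2, and without ko_normal 2 the Gdf15 call was also lost (adjusted p = 0.0523). A fit of the wild-type groups alone gave adjusted p-values of 0.0622 and 0.0756, and one with an index of clock genes as a covariate 0.147 and 0.112, so both ended the calls.

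The genes with a pattern most like Hspa5 were sought over 7272 genes with a mean of at least 10 CPM, by Pearson's r of log2 CPM across the 12 libraries, as a description without a test. Outside the members they were Cpn1 (r = 0.946), Gmppb (0.937), Taf10 (0.922), Chordc1 (0.92) and the pseudogene Adh6-ps1 (0.914). Cpn1 encodes a secreted carboxypeptidase subunit, and Gmppb an enzyme of mannose supply for glycans. Among the members, Dnajb11 (0.939) and Calr (0.921) stood highest, at ranks 2 and 5. At the other end were Ppp1r15a (-0.15), Trib3 (0.12), Atf4 (0.17) and Ern1 (0.17). The 12 points come from 4 groups, and Eif2ak3, Chac1 and Asns fell under 10 CPM.

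The clock index was one of several measures that moved with the low level in wt_normal. With this index as a covariate, 11 members were called with HFD in wild type, against 1.34% of all genes. With ko on the normal diet 2, Pdia4 and Pdia6, were called, against 1.03%. The members' medians were then 0.97 and 0.93, and those of the ATF6 arm 1.51 and 1.64. Outside wt_normal the index lay between -5.16 and -3.705, apart from wt_HFD replicate 3 at -1.39. The index and the group wt_normal can thus hardly be told apart, and the adjusted values lean on the spread within wt_normal and wt_HFD.

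Endothelial markers summed to 204 to 243 CPM in wt_normal against 83.7 to 182 in the other groups, and stellate markers to 137 to 225 against 73.4 to 137. Hepatocyte markers summed to 45580 to 61280 CPM in wt_normal, 53880 to 61530 in wt_HFD, 77620 to 82780 in ko_normal and 79340 to 87700 in ko_HFD. Such a sum weighs the most abundant genes most. With ko against wt the 8 hepatocyte markers had a median log2 change of 0.20 (-0.15 to 0.88) on the normal diet, with 1 negative. On HFD their median was 0.28 (-0.14 to 0.85), with 2 negative. Pancreatic acinar markers, from a cell type rich in these members, summed to 17.5 to 45.8 CPM, of which Cela1 gave 17.2 to 44.9 and none of the other 9 exceeded 2.0 in any library. B and plasma cell markers summed to 11.7 to 31.2 CPM outside wt_normal 2. Library wt_normal 2 was the lowest of 12 for 17 of 37 members, and without it the median member change was 0.44 with HFD in wild type and 0.36 with ko on the normal diet. The share of all genes lowest in this library was not computed. In bulk tissue, fewer cells of a type and less RNA per cell cannot be told apart, and the part of these markers in the members' levels was not tested.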

How the data were processed

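The deposited files, 1 a library, hold the authors' raw read counts per gene as whole numbers. Per the submitters' processing notes the tools were CASAVA 1.8 and Bowtie 0.12.2 and the builds mm8 and mm9. Which counting tool, annotation or strand setting was used is not given in the sources used here. Promoter windows are RefSeq's on GRCm38.p6, and exons are those of GENCODE M21; neither gives the authors' coordinates. Protein sequences were not analysed here.

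Counts were filtered with edgeR's filterByExpr, scaled with TMM and fitted with edgeR 4.0.16 (4 groups, 8 residual degrees of freedom). Calls required an adjusted p (Benjamini-Hochberg, all genes tested) under 0.05. Log2 CPM used a prior count of 2. Alternatives were DESeq2 1.42.0, its size factors in edgeR, no filter, only the groups compared, a replicate block, a clock covariate and each library left out. The fit was also run on simulated counts with the same spread for all genes and no outlying library, which does not cover the spread of these data. Replicates of a group differed by 39.5 to 199 chi-square units per degree of freedom, so none repeated another.

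The members and lists were chosen with earlier results of these data known. Values per library are given for called members, sensors and factors, and the 2 members of every other role with the smallest p in the difference of the ko effects and in ko against wt on the normal diet; Hspa5, and the genes named in the closing observations, were added after their values were seen. Of the other pathway lists, called genes are named, at most 4 a comparison.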

Additional observations from a re-analysis of the deposited data

How the results depend on the processing

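The counts of called members depended on the settings more than the medians did. With HFD in wild type, 4 members became 14 without the filter, 14 in DESeq2, 11 with the clock covariate and 1 with only the groups compared, and 0 to 6 when 1 library was left out. With ko on the normal diet, 0 became 4, 5 and 2 in the first 3 of these, and 0 to 2 with 1 library left out. For the difference of the ko effects, 0 became 2 without the filter and 4 in DESeq2. With the clock covariate, medians for ko on the normal diet became 0.93 (all members), 0.86 (XBP1 arm) and 1.64 (ATF6 arm), for HFD in wild type 0.97, 0.73 and 1.51, with 0.88 for the ATF4 arm, for the difference -1.08, -0.79 and -1.47, and for the XBP1 arm with ko on HFD 0.19. Leaving out 1 library gave medians for HFD in wild type of 0.44 to 0.95 (all members) and 1.15 to 2.02 (ATF4 arm), for ko on HFD of -1.53 to -0.59 (ATF4 arm), and for the difference of -0.94 to -0.47 (all members), -2.40 to -0.94 (ATF4 arm) and -1.20 to -0.68 (ATF6 arm). Trib3 with ko on the normal diet turned from 1.34 to -0.33 with the clock covariate. The causes were not tested. Whether the replicate numbers mark paired libraries was not settled by the data. Of 18 same-numbered pairs, r ran from -0.21 to 0.33 and 4 exceeded 0.1. Pairs with different numbers ran from -0.25 to 0.24, and 7 of 12 libraries were closest to their own number. With a replicate block, 3 members were called with HFD in wild type, without Manf (1.24, adjusted p = 0.064 in edgeR), and 0 elsewhere. Over all genes tested, HFD in wild type called 100 genes in edgeR, 665 in DESeq2, 696 without the filter, 194 with the clock covariate, 34 with only the groups compared and 9 to 131 with 1 library left out. For ko on the normal diet these were 30, 529, 648, 148, 96 and 3 to 84, and for ko on HFD 10, 95, 51, 10, 6 and 2 to 14. HFD in the knockout called 0, with 37 in DESeq2 and 21 without the filter, and the difference 0, with 19 and 13, and 16 with the clock covariate. Depth limits Asns and Chac1 most, with as few as 17 and 18 counts in a library.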

Other observations

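Chaperones outside the ER were not called in any comparison by edgeR (12 tested). With HFD in wild type 10 of 12 had a positive log2 change, 5 had an unadjusted p under 0.05 (17.0% of all genes) and DESeq2 called 1 (4.83%), with a median of 0.49 against -0.03 over all genes tested. Hspd1, the mitochondrial chaperonin, measured 217, 173 and 208 CPM in wt_normal and 344, 282 and 271 in wt_HFD, without overlap (log2 0.59, SE 0.22, adjusted p = 0.206 in edgeR). Dnajb1, a cytosolic heat shock co-chaperone, measured 34.7, 17.3 and 145 CPM in wt_HFD, so replicate 3 alone was high, and 20.1 to 38.5 in wt_normal. Hsph1, a cytosolic Hsp70 partner, was also highest in wt_HFD replicate 3, at 137 CPM against 78.2 and 58.9 in the other replicates. wt_HFD replicate 3 was the highest of 12 for 18 of the 37 ER genes as well, and the share of all genes highest there was not computed.

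Fgf21, a liver hormone of the integrated stress response, measured 338, 11.0 and 66.5 CPM in wt_HFD and 2.38 to 13.1 in wt_normal, so replicate 2 lay within the normal-diet range (log2 4.02, SE 1.08, adjusted p = 0.105 in edgeR). Atf3, a stress factor, measured 10.2, 9.94 and 35.4 CPM in wt_HFD, above all other libraries (log2 2.59 with HFD in wild type, SE 0.58, adjusted p = 0.0625 in edgeR and 0.000326 in DESeq2). Replicate 2 of wt_HFD, in which Ddit3 was at the normal-diet level, had the highest Gdf15 of the 12 libraries at 146 CPM.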
